A study of Mus musculus with 24 samples.

Results

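Described here are 9 genes of the conjugating enzymes in the mouse duodenum: the UDP-glucuronosyltransferases Ugt2b5, Ugt2b34, Ugt2b36, Ugt2a3, Ugt1a1 and Ugt1a6a, and the sulfotransferases Sult1b1, Sult1d1 and Sult2b1. They were taken by symbol from deposited tables that list 25410 symbols, and each of the 9 has 1 entry there. All 9 passed the filter on low values, which kept 20006 genes with at least 0.5 RPKM (read number divided by feature length and by library size) in at least 6 of 24 libraries. RNA from whole duodenum of male Cyp27b1 null mice was sequenced after removal of ribosomal RNA. These mice lack the kidney enzyme that makes the active vitamin D hormone, and every group, controls included, carried the deletion and ate food without vitamin D from weaning at 3 weeks.

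The normal diet held 0.47% calcium and 0.3% phosphorus, and the rescue diet held 2% calcium, 1.25% phosphorus and 20% lactose. At 8 weeks of age mice of each diet received an intraperitoneal injection of vehicle or of 2 ng per g body weight of 1,25-dihydroxyvitamin D3 (1,25D), and the duodenum was taken 6 h later. The 4 groups, normal vehicle, normal 1,25D, rescue vehicle and rescue 1,25D, hold 6 libraries each. The deletion is present in all of them and no wild type was analysed here. Nothing in the labels says which animal gave which library, and the tests therefore weigh only how far these libraries scatter. In whole tissue fewer cells of a type and less RNA per cell cannot be told apart.

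UDP-glucuronosyltransferases (UGTs) sit in the endoplasmic reticulum and move glucuronic acid from UDP-glucuronate onto bilirubin, steroids, bile acids, drugs and plant phenols. Cytosolic sulfotransferases (SULTs) move a sulfate group from the donor PAPS onto phenols, amines and steroids. Both reactions make small lipophilic compounds soluble, and in the villus enterocyte, the absorbing cell of the small intestine, they act on what is taken up from food before export pumps send the conjugates back to the lumen or on to the blood.

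Of the 9 genes, 6 start within 662 kb of mouse chromosome 5 on the minus strand (RefSeq, GRCm38.p6): Ugt2b34, Ugt2b36, Ugt2b5, Ugt2a3, Sult1b1 and Sult1d1. Ugt1a6a and Ugt1a1 start 77.2 kb apart on the plus strand of chromosome 1, and Sult2b1 lies on chromosome 7. The files use the build mm9, so these positions come from RefSeq's promoter table only and were not set against the files' own coordinates. The 250 bases before the start are printed 5′ to 3′ for the 2 genes that passed the test after 1,25D, Ugt2b34 (chr5:86906938-86907187, minus strand) and Ugt2a3 (chr5:87337196-87337445, minus strand), and for 2 related genes with differences of 1.41 and -0.04 on the log2 scale in the same comparison, Ugt2b5 (chr5:87140341-87140590, minus strand) and Ugt2b36 (chr5:87092556-87092805, minus strand). Capitals mark the HNF1 motif GTTAAT and the nuclear receptor motif AGGTCA, on either strand.
Ugt2b34: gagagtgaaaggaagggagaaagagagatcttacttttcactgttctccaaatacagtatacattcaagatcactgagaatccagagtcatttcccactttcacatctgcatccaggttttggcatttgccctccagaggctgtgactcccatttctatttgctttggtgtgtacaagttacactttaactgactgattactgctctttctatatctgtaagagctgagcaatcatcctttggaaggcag
Ugt2a3: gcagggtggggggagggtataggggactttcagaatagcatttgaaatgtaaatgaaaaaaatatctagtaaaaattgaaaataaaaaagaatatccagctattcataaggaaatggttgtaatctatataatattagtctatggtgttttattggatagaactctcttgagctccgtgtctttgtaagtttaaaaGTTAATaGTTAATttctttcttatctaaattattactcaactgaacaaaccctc
Ugt2b5: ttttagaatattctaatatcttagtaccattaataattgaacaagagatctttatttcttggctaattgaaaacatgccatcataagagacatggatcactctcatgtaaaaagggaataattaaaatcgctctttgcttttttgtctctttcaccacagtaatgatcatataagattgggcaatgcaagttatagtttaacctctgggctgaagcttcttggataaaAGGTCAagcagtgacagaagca
Ugt2b36: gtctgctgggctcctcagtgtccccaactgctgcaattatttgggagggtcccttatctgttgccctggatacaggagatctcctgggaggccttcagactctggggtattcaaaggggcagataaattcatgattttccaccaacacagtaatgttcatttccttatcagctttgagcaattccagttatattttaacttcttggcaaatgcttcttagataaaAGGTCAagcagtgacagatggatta
In all 11 motifs were searched, on both strands, in 11 windows, since Sult1b1 and Sult2b1 have 2 each. The Ugt2a3 window holds 2 copies of GTTAAT, at -54 to -49 and -47 to -42 from the start. GTTAAT is present in 4 of the 11 windows and in 6.47% of 32536 promoters of this length. Ugt2b5 and Ugt2b36 share the unbroken run gataaaAGGTCAagcagtgacaga, 24 bases long, with AGGTCA at -22 to -17 in Ugt2b5 and at -25 to -20 in Ugt2b36. AGGTCA is in 3 of the 11 windows and in 14.0% of all promoters. Another form, AGTTCA, is likewise in 3 of the 11 and in 11.8% of all. The AHR core GCGTG is in 3 of the 11 and in 28.3% of all. No window holds the TATA box TATAAA (12.3% of all), the CDX motif TTTATGG (2.45%), the HNF4 core CAAAGTCCA (0.387%), or AGGTCA and AGTTCA paired in any order as a direct repeat with a gap of NNN (each at most 0.00615%). Ugt2b34 has neither capitalised motif in this window. Such matches are letters in a window, not shown sites of binding.

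RPKM values are scaled to length, so levels can be set side by side between genes. Ugt2b34 was the most abundant of the 9 in every group, with 440.6 ± 96.7 RPKM (SD, n = 6) in normal vehicle, and it made up 55.0%, 52.5%, 59.0% and 58.7% of the 9 genes' mean RPKM in normal vehicle, normal 1,25D, rescue vehicle and rescue 1,25D. Sult1d1, which sulfates dopamine and related amines in the mouse, came next in every group, followed by Sult1b1, and Ugt2b36 was last at 2.43 to 3.17 RPKM in the group means. Below Sult1b1 came Ugt1a1 and Ugt2a3, and below those Ugt1a6a, Ugt2b5 and Sult2b1, in an order that differed between groups. In normal vehicle each neighbouring pair in this order overlapped between libraries. Ugt2b34 stood clear of Sult1d1, and Sult1d1 clear of Sult1b1, in normal 1,25D and in rescue vehicle, while in rescue 1,25D those pairs overlapped. Closely related copies (Ugt2b5, Ugt2b36 and Ugt2b38; Ugt1a6a and Ugt1a6b) and the Ugt1a genes, which share their later exons, can exchange reads, so their split is uncertain.

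**Figure D1:**
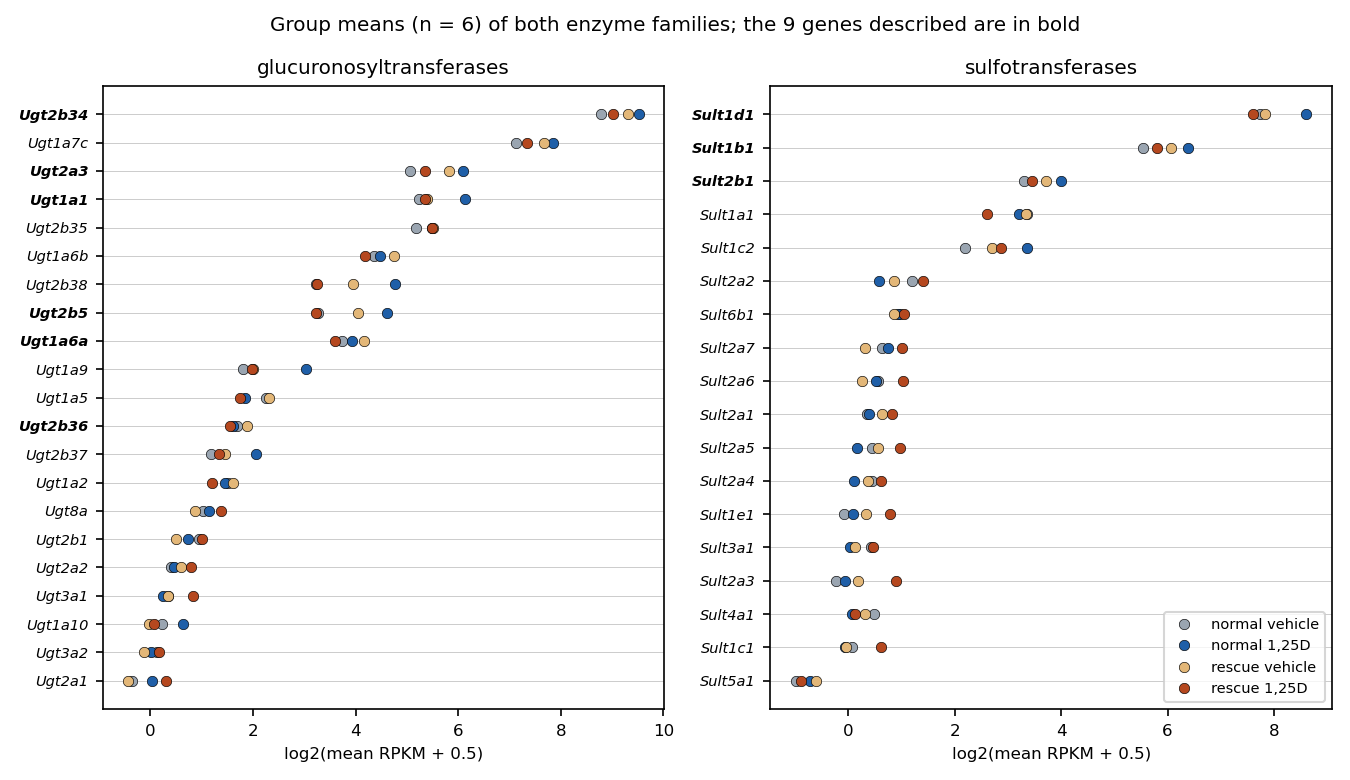
Group means (n = 6 libraries) of the measured UGTs (left) and SULTs (right) on the x axis as log2(mean RPKM + 0.5), 1 row per gene, 1 colour per group, with the 9 genes described in bold. Ugt2b34 tops the UGTs and Sult1d1 the SULTs in all 4 groups, and Ugt1a7c lies second among the UGTs at 139.6 to 229.7 RPKM.

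The genes differed in how much they varied between libraries of a group. Ugt2b34 was the steadiest of the abundant ones, with a coefficient of variation (SD over mean) of 10.4% to 28.0%. For Sult1d1 it ran from 31.9% to 82.6%, and in rescue 1,25D 4 libraries lay between 69.9 and 143 RPKM and 2 at 397 and 398 RPKM. For Ugt2b5 it ran from 31.9% to 76.9%. For Ugt2a3 it stayed at 20.3% to 36.3%.

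Read depth differed by up to 2.77 times between the deepest library (normal vehicle replicate 6) and the shallowest (rescue 1,25D replicate 4), judged by the spacing of the lowest RPKM values; absolute depth is unknown. Cyp27b1 was at 0 to 0.452 RPKM in all 24 libraries, which checks no label here because all mice carry the deletion. The injection could be checked on Cyp24a1, the vitamin D hormone's own 24-hydroxylase: its RPKM lay at 0.131 to 4.03 in normal vehicle and 509 to 1036 in normal 1,25D, and at 0.016 to 0.712 in rescue vehicle and 92.1 to 962 in rescue 1,25D. Genes of the exocrine pancreas, which lies against the duodenum, took a median of 5.18% and up to 34.5% of the RPKM in normal vehicle. Medians and maxima were 0.640% and 6.70% in normal 1,25D, 0.843% and 4.56% in rescue vehicle, and 0.860% and 11.9% in rescue 1,25D. The 34.5% was in normal vehicle replicate 6, also the deepest library, so leaving it out takes away both.

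The first comparison set 1,25D against vehicle on the normal diet. Of the 9 genes, 2 rose, Ugt2b34 and Ugt2a3 (limma, p adjusted by Benjamini-Hochberg across 20006 genes and under 0.05), beside 368 called genes in all, 1.84% of those tested. By direction, 1.78% of all genes were called higher and 0.055% lower; none of the 9 was called lower. The split between higher and lower calls over all genes moved with the scaling, from 357 and 11 to 231 and 93 with quantile normalization, 208 and 68 with median-of-ratios scaling, 225 and 114 without pancreas genes in the totals, and 133 and 90 relative to general epithelial genes; the last 2 moved the median of all genes from 0.05 to -0.06 and -0.20. The median log2 difference was 0.89 over the 9 genes and 0.05 over all tested genes. Of the 9, 8 lay above 0, against 58.8% of all genes. By limma 7 of the 9 had an unadjusted p under 0.05, against 12.0% of all genes. The 9 were chosen with earlier results of these data known, and many of them vary together between libraries. Counts of them, here and below, are therefore not a test. Villus enterocyte markers moved the same way: all 17 genes of that list lay above 0, with a median of 1.04. Relative to them 7 of the 9 genes turned below 0 (a setting chosen after seeing the data). That setting shifts every gene by the list's own change and called 82.4% of all genes. Counts of turned signs, here and below, follow from that shift and test nothing. None of the 9 had groups free of overlap, against 2.22% of all genes.

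**Figure D2:**
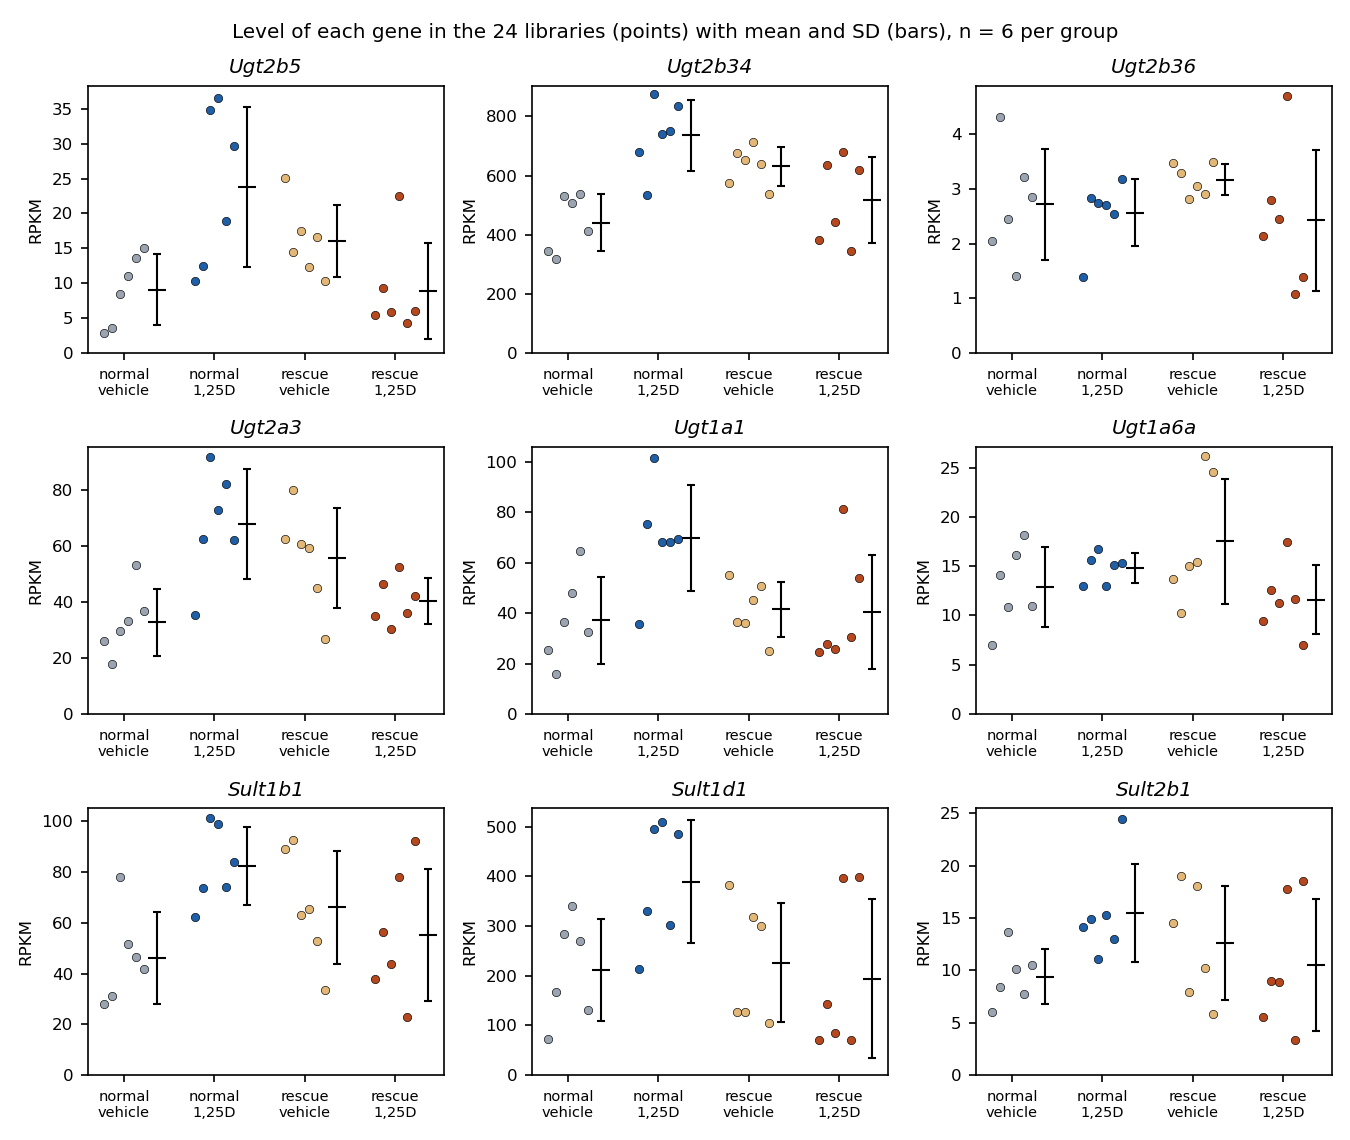
RPKM (y axis, from 0) of the 9 genes in the 24 libraries, by group on the x axis; points are libraries and bars give mean and SD (n = 6). Normal 1,25D stands highest on average for 7 of the 9 genes, and the groups overlap throughout.

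Ugt2b34, a UGT2B enzyme of the family that conjugates steroids and fatty acids, lay at 316 to 536 RPKM in normal vehicle (median 458.6) and at 535 to 875 in normal 1,25D (median 746.6). In 5 of 6 1,25D libraries the level was above every vehicle library, and the remaining 1 lay inside the vehicle range. The log2 difference was 0.75 (SE 0.19, adjusted p = 0.0312 with limma).

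Ugt2a3, whose human counterpart glucuronidates bile acids, lay at 17.8 to 53.2 RPKM in normal vehicle (median 31.6) and at 35.3 to 91.7 in normal 1,25D (median 67.8). Again 5 of 6 1,25D libraries stood above all vehicle libraries, and 1, at 35.3 RPKM, sat inside their range. The log2 difference was 1.05 (SE 0.25, adjusted p = 0.0243 with limma).

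Both calls depended on single libraries. The Ugt2b34 call was lost in 6 of 24 fits that left out 1 library (without normal vehicle replicate 1 or 2, or normal 1,25D replicate 3, 4, 5 or 6; lowest log2 difference 0.66, adjusted p up to 0.0962), and the Ugt2a3 call in 5 of them (the same libraries but for normal 1,25D replicate 6; lowest log2 difference 0.89, adjusted p up to 0.0813). When the 31 pancreas genes were taken out of the totals, Ugt2b34 stood at 0.61 (adjusted p = 0.0852) and Ugt2a3 at 0.91 (adjusted p = 0.0800). Both calls were also lost with quantile normalization (adjusted p = 0.0522 and 0.0996), median-of-ratios scaling (0.144 and 0.0996) and relative to general epithelial genes (0.130 and 0.121), and that of Ugt2b34 when only both normal-diet groups were fitted (0.0545). Relative to villus enterocyte genes both turned direction, Ugt2b34 to -0.39 (adjusted p = 0.263) and Ugt2a3 to -0.09 (0.787).

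The other 7 genes did not pass. Ugt2b5 had the largest difference of the 9, from a median of 9.74 to one of 24.3 RPKM (log2 difference 1.41, SE 0.40, adjusted p = 0.0714). Its libraries overlapped: 4 of 6 1,25D libraries stood above all vehicle libraries. It passed in 4 fits that left out 1 library (normal vehicle replicate 5 or 6, normal 1,25D replicate 1 or rescue 1,25D replicate 4). With 1 library left out the lowest adjusted p was 0.0381 and the largest difference 1.61. Ugt2b5 also passed with limma array weights (1.45, adjusted p = 0.0460) and without both libraries of extreme depth (1.59, adjusted p = 0.0216 with limma). The latter setting was not planned in advance. It drops normal vehicle replicate 6 and rescue 1,25D replicate 4, each the highest library of its group for Ugt2b5. Ugt1a1, the bilirubin enzyme, went from a median of 34.5 to 68.9 RPKM with an adjusted p of 0.120 (log2 difference 0.97, SE 0.31), and 0.0482 without normal vehicle replicate 5. Sult1b1, which sulfates thyroid hormone and small phenols, had medians of 44.0 and 79.1 RPKM (log2 difference 0.89, SE 0.29, adjusted p = 0.123, and 0.0352 when only both normal-diet groups were fitted). For Sult1d1 and Sult2b1, the enzyme of cholesterol sulfation, log2 differences were 0.99 (95% interval 0.05 to 1.93) and 0.69 (0.02 to 1.36). Ugt1a6a, which conjugates planar phenols and serotonin, and Ugt2b36 were at 0.25 (-0.21 to 0.71) and -0.04 (-0.53 to 0.45) as deposited. Relative to villus enterocyte genes these were the 2 of the 9 called, both lower, at -0.89 (adjusted p = 0.0413) and -1.18 (0.0177), where that scaling called 82.4% of all genes. All differences refer to log2(RPKM + 0.5), so those of genes with low values, such as Ugt2b36, come out too small.

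The remaining genes of both families and their pathway gave 10 calls, all higher, where 1.78% of all genes were called higher. These lists were chosen with earlier results known, and their calls were not examined under other scalings. Called were 1 of 15 other UGTs tested, 1 of 14 other SULTs and 1 of 12 genes that make, move or recycle PAPS. So were 1 of 7 conjugate export pumps, 1 of 17 sensors of xenobiotics and lipids, and 5 of 15 known targets of such sensors. The targets include Cyp24a1, used above to check the injection. Ugt1a7c was the UGT, at 139.6 ± 47.5 RPKM in normal vehicle and 229.7 ± 48.7 in normal 1,25D (SD, n = 6; log2 difference 0.76, SE 0.20, adjusted p = 0.0486). Sult1c2 was the SULT, at 4.08 ± 1.56 and 9.82 ± 1.95 RPKM (log2 difference 1.24, SE 0.25, adjusted p = 0.00727). Bpnt1, which breaks down the by-product of sulfation, rose by 0.83 (SE 0.21, adjusted p = 0.0425), and Abcc2, the pump that exports conjugates to the lumen, by 1.28 (SE 0.32, adjusted p = 0.0374). Nr1h3 (LXRα, an oxysterol receptor) rose by 0.65 (SE 0.13, adjusted p = 0.00514). Among the targets Cyp24a1, Cyp2b10, Gstm3 and Abcb1a rose by 9.14, 3.61, 2.37 and 1.07.

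For UDP-glucuronate supply, 0 of 10 genes were called by limma. An unadjusted p under 0.05 was found in 5, against 12.0% of all genes. This list too was chosen with earlier results known, so that count is not a test. Pgm2 was at 0.39 (adjusted p = 0.168 with limma) and Ugp2 at 0.31 (0.331). Of 7 deconjugating enzymes, 0 were called by limma and 0 had an unadjusted p under 0.05, with Sumf1 at 0.31 (adjusted p = 0.418) and Arsg at 0.26 (0.815). On chromosome 5, 6 other genes start among the 6 members there, all UGT2 genes and all tested. Of these 0 were called, and 5 had a difference above 0, against 58.8% of all genes. Only 2 of the 6, Ugt2b38 and Ugt2b35, had a mean of 5 RPKM or more over the 24 libraries. Ugt2b38 was at 8.88 ± 6.08 and 26.8 ± 13.1 RPKM (SD, n = 6; log2 difference 1.75, SE 0.53, adjusted p = 0.102). Ugt2b35 was at 0.38 (SE 0.20, adjusted p = 0.507).

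**Figure D3:**
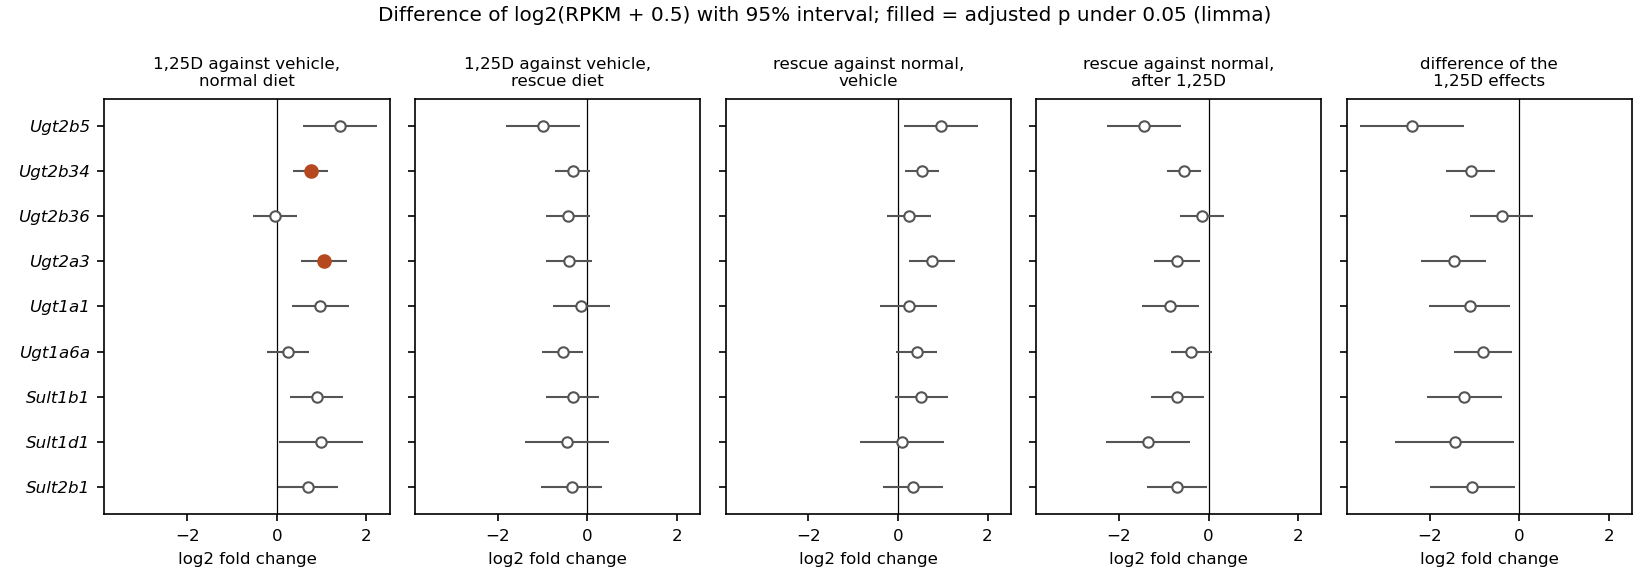
Log2 difference (x axis, difference of log2(RPKM + 0.5)) with its 95% interval for each of the 9 genes in the 5 comparisons; filled points passed an adjusted p of 0.05. Ugt2b34 and Ugt2a3 on the normal diet are the filled ones, and all 9 points lie below 0 for the rescue diet's 1,25D effect, 5 of which turn above 0 relative to villus enterocyte genes.

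The second comparison set 1,25D against vehicle on the rescue diet. Of the 9 genes 0 were called by limma, beside 0.145% of all genes; 2 had an unadjusted p under 0.05, Ugt2b5 and Ugt1a6a, against 4.83% of all genes. All 9 differences lay below 0, while 60.9% of all genes lay above it. The medians were -0.41 and 0.06, and 5 of the 9 turned above 0 relative to villus enterocyte genes. Adjusted p ran from 0.878 to 0.938. Ugt2b5 had a median of 15.5 RPKM in rescue vehicle (10.4 to 25.0) and 5.93 in rescue 1,25D (4.36 to 22.5), a log2 difference of -0.99 (95% interval -1.81 to -0.16). Of the 6 1,25D libraries 5 stood below all vehicle libraries, and replicate 4 stood among them at 22.5 RPKM. For Ugt1a6a the difference was -0.55 (-1.01 to -0.09). Ugt2b34 was at 536 to 714 RPKM in rescue vehicle and 344 to 681 in rescue 1,25D, a difference of -0.33 (-0.71 to 0.05). Ugt2a3 was at 26.9 to 80.01 and 30.4 to 52.7 RPKM, a difference of -0.41 (-0.92 to 0.11). Of all genes, 0.365% had groups free of overlap, and none of the 9 did.

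Of the pathway lists, only the target list had a call on the rescue diet, Cyp24a1, at 9.001 (SE 0.44, adjusted p = 8.13e-13). Among the uncalled genes of smallest p, Abcc6 was at -0.68 (adjusted p = 0.735), Ugt2a1 at 0.68, Ugt1a6b at -0.54, Sult1a1 at -0.69, Sult1c1 at 0.59 and Slc26a3 at -0.68 (each 0.878). The other names of the rule on this diet were Pgm1 at -0.24, Slc35d1 at 0.16, Slc26a1 at -0.27, Abcc5 at -0.14, Arsa at -0.37, Arsg at -0.40, Nr1i3 at -0.39 and Rxra at -0.29.

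Whether the hormone acted differently on the 2 diets was tested as the difference of both effects. Of the 9 genes 0 were called by limma, beside 0.005% of all genes (1 gene). An unadjusted p under 0.05 was found in 8 of 9, against 6.85% of all genes. The 9 were chosen with earlier results known, so that count is not a test. Ugt2b5 had a difference of -2.40 (SE 0.57, unadjusted p = 0.000271 and adjusted p = 0.187 with limma). Ugt2a3 was at -1.46 (SE 0.35) and Ugt2b34 at -1.08 (SE 0.26), each with the same adjusted p of 0.187. All 9 values lay below 0, while 51.7% of all genes lay above it. The medians were -1.11 and 0.01, and 8 of the 9 turned above 0 relative to villus enterocyte genes. The 6 genes besides Ugt2b5, Ugt2a3 and Ugt2b34 had adjusted p from 0.383 to 0.957 with limma. Without rescue 1,25D replicate 4 the Ugt2b5 difference was -2.70 (adjusted p = 0.0370), and without rescue vehicle replicate 6 the Ugt2a3 difference was -1.65 (adjusted p = 0.0421). In pathway genes the values of smallest p were Abcb1a at -1.54 (adjusted p = 0.133), Nr1h3 at -0.75 (0.187), Ugt1a7c at -1.13 (0.216), Ugt2b38 at -2.70 (0.264), Nr1i3 at -0.94 and Aldh1a1 at -1.06 (each 0.265).

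The diets were set against each other under each injection. Under vehicle all 9 differences of rescue against normal lay above 0, as did 68.9% of all genes (medians 0.42 and 0.10). Relative to villus enterocyte genes 7 turned below 0, and Sult1d1 did so under the other 4 scalings too. By limma 0 were called, as for all genes (0%). Of the 9, 3 had an unadjusted p under 0.05, against 7.18% of all. Ugt2a3 was at 0.76 (95% interval 0.24 to 1.27, adjusted p = 0.567), Ugt2b34 at 0.54 (0.16 to 0.92, adjusted p = 0.580) and Ugt2b5 at 0.96 (0.13 to 1.78, adjusted p = 0.667). In Ugt2b34 5 of 6 rescue vehicle libraries stood above every normal vehicle library. Sult1d1 was nearest to 0, at 0.09 (-0.85 to 1.03). No pathway gene was called; those of smallest p were Abcb1a at 0.86 (adjusted p = 0.475), Ugt1a7c at 0.60 and Slc26a2 at 0.53 (each 0.578).

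After 1,25D all 9 differences of rescue against normal lay below 0, while 70.7% of all genes lay above it. The medians were -0.70 and 0.12, and 7 of the 9 turned above 0 relative to villus enterocyte genes. Again 0 were called by limma, beside 0.01% of all genes (2 genes). An unadjusted p under 0.05 was found in 7 of 9, against 8.38% of all, a count that is not a test for genes so chosen. Ugt2b5 was at -1.44 (-2.26 to -0.62, adjusted p = 0.348), Sult1d1 at -1.35 (-2.29 to -0.40, adjusted p = 0.456) and Ugt1a1 at -0.86 (-1.50 to -0.22, adjusted p = 0.480). With libraries weighted by their quality 6 of the 9 were called lower: Ugt2b5, Ugt2b34, Ugt2a3, Ugt1a1, Sult1b1 and Sult1d1 (limma array weights, adjusted p 0.0123 to 0.0422), beside 6.43% of all genes called under that setting. Groups free of overlap were found in 0.225% of all genes under vehicle and 0.815% after 1,25D, and in none of the 9. Of the pathway genes none was called, and those of smallest p were Aldh1a1 at -0.77 (adjusted p = 0.332), Ugt2b38 at -1.74 and Nr1h3 at -0.42 (each 0.403). These comparisons share their group means with the 1,25D comparisons, so their signs are not independent.

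Markers of the villus enterocyte moved with these genes. All 17 genes of the list were detected in every library, and their summed RPKM was 3159 to 7172 in normal vehicle, 7505 to 14450 in normal 1,25D, 2828 to 12770 in rescue vehicle and 2160 to 10570 in rescue 1,25D. On the normal diet all 17 lay above 0 after 1,25D, against 58.8% of all genes. Of these 5 were called higher (Alpi, Fabp2, Lct, Rbp2 and Treh), against 1.78% of all genes. In the other 4 comparisons the list's median was -0.48 (1,25D on the rescue diet), 0.52 (diet under vehicle), -0.92 (diet after 1,25D) and -1.43 (difference of the effects), with no call. Of 19 general epithelial genes, 2 were called higher on the normal diet (Cdh17 and Ezr, with a list median of 0.18). The calls of marker genes were not examined under other scalings. All 31 tested pancreas genes lay below 0 there, none called (median -3.41), with a summed RPKM of 4418 to 192000 in normal vehicle and 91.6 to 37570 in normal 1,25D; 7 of them were at 0 in at least 1 library. All 12 smooth muscle genes lay below 0 as well, none called (median -0.42). Of 15 hepatocyte genes, 3 reached a mean of 1 RPKM.

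Set against the enterocyte genes, Ugt2b34 had 9.02 ± 1.34, 7.19 ± 1.82, 9.47 ± 4.96 and 10.4 ± 3.40 RPKM per 100 RPKM of the list in normal vehicle, normal 1,25D, rescue vehicle and rescue 1,25D (SD, n = 6). Ugt2a3 had 0.666 ± 0.183, 0.653 ± 0.218, 0.740 ± 0.165 and 0.876 ± 0.440. On this scale the normal 1,25D mean was not above that of normal vehicle for either gene. The list's own summed RPKM had a mean of 5045 in normal vehicle and 10660 in normal 1,25D. These ratios carry that change of the list and are not a test. The part of the enterocyte list in the results on the 9 genes was not tested.

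**Figure D4:**
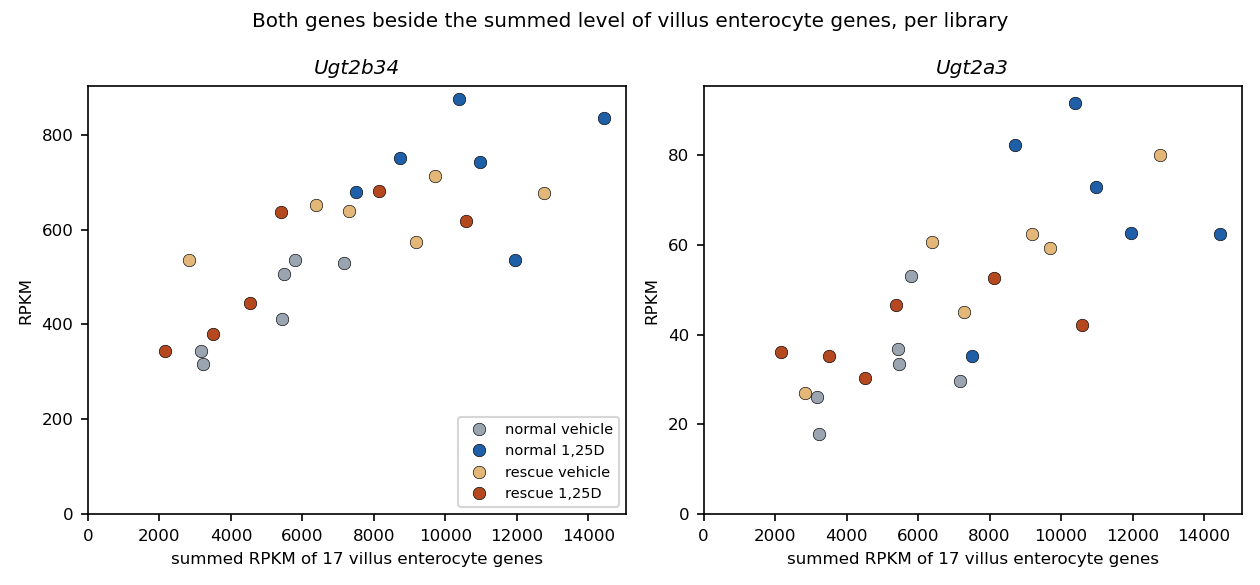
RPKM of Ugt2b34 (left) and Ugt2a3 (right) on the y axis against the summed RPKM of 17 villus enterocyte genes on the x axis; each point is 1 of 24 libraries, coloured by group. Ugt2b34 is at 343.9 RPKM in the library with the lowest sum, 2160 RPKM, and normal 1,25D lies at sums of 7505 to 14450.

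As a description, log2 values of the 9 genes were correlated across the 24 libraries: over 36 pairs Pearson's r had a median of 0.576 (0.022 to 0.856), and 0.444 after group means were removed. Without Ugt2b36 and Ugt1a6a, chosen after their values were seen, the 21 remaining pairs had a median of 0.753 (0.519 to 0.856). The libraries share composition and depth, which enter every pair. Ugt2b38 and Ugt1a6b, named below, are close copies of Ugt2b5 and Ugt1a6a and can exchange reads with them. The part of shared reads in those values of r was not tested. By the same measure over 24 libraries the genes most like each member were Ugt2b38 (r = 0.968) and Acaa1a (0.858) for Ugt2b5, Iyd (0.876) and Gpx4 (0.873) for Ugt2b34, and Aadac (0.899) and Rdh7 (0.895) for Ugt2a3. For Ugt2b36 they were A230107N01Rik (0.710) and Tmem27 (0.706), for Ugt1a1 Fbp1 (0.898) and Slc10a5 (0.894), and for Ugt1a6a Ugt1a6b (0.971) and 2610507I01Rik (0.801). For the sulfotransferases they were Pls1 (0.970) and Cdhr2 (0.967) for Sult1b1, Tmem139 and Akr1b7 (0.942 each) for Sult1d1, and Apoc2 (0.956) and LOC100503128 (0.931) for Sult2b1.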

How the data were processed

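The values are RPKM, deposited by the authors as 1 table per library, per the file headers; they were used as deposited. The submitters' processing notes name TopHat and the build mm9; no version, quantifier or annotation is given in the sources used here. Values of rows sharing a symbol were summed. Each table held 30795 entries. Relative depth was estimated from steps between low RPKM values over 1509 entries (88.8% of library pairs matched within 0.05 on the log2 scale).

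Tests were run on log2(RPKM + 0.5) with limma 3.58.1 (R 4.3.3; eBayes with trend), all 24 libraries in 1 fit with 4 group means and 20 residual degrees of freedom, two-sided, Benjamini-Hochberg adjusted over 20006 genes. Python 3.11.15, numpy 2.4.6, pandas 2.3.3 and matplotlib 3.10.9 read the tables and drew the figures. The fit was tested on simulated data.

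The 9 genes and the lists were chosen with earlier results of these data known. Named besides them were, per pathway list and comparison, the called genes (up to 4 by smallest p) or otherwise genes of smallest p (the text gives only part of these), and the 2 genes most correlated with each member. Promoters come from RefSeq (GRCm38.p6), all 9 genes matched; motifs were searched on both strands in 250 bases, and no other sequence was used. Replicate numbers do not pair the libraries. The alternatives tried were the pseudocount, the filter, scalings, array weights, 1 left-out library, the replicate block and the groups compared alone.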

Additional observations from a re-analysis of the deposited data

Results flagged for a closer look

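Of 36 sets of 6 libraries (9 genes in 4 groups), 3 held a library whose gap to its nearest neighbour was past the 95% critical value of Dixon's test; chance gives about 1 in 20 such sets. Ugt2b5 in rescue 1,25D replicate 4 was at 22.526 RPKM, against 4.36 to 9.26 in the others. This is the shallowest library, and its summed villus enterocyte RPKM was 8134 in a group range of 2160 to 10570. Whether either bears on the value was not tested. Ugt2b36 in normal 1,25D replicate 1 was at 1.385 RPKM, the lowest of its group. Sult2b1 in normal 1,25D replicate 6 was at 24.447 RPKM, the highest of its group.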

How the results depend on the processing

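Over 39 settings, 24 of them leaving out 1 library each, 1655 of 1746 values kept direction and side of the threshold. Of the rest 20 lost a call, 20 gained one and 51 turned sign. Most of the 1746 values belong to results that were not called and so had no call to lose. All 20 losses fell on the 2 called results, Ugt2b34 and Ugt2a3 after 1,25D on the normal diet. With 1 library left out, these stayed called in 18 and 19 of 24 fits. The count of the 9 genes called for 1,25D on the normal diet was 2 and became 0 under quantile normalization, median-of-ratios scaling, totals without pancreas genes and values relative to general epithelial genes; relative to villus enterocyte genes the 2 called were other genes and lower, Ugt2b36 at -1.18 (adjusted p = 0.0177) and Ugt1a6a at -0.889 (0.0413). Leaving out 1 library gave 0 to 4 (4 without normal vehicle replicate 5). For diet after 1,25D the count became 6 with array weights. Leaving out both libraries of extreme depth gave 1, Ugt2b5, there and for the difference of the effects. That setting was not planned in advance, and both libraries were the highest of their groups for Ugt2b5. For the difference of the effects, leaving out 1 library gave 0 to 1. The cause was not tested. Library numbers did not pair the libraries (correlation of same-numbered libraries -0.436 to 0.478, median 0.002), and the replicate block left the count on the normal diet at 2 and the other 4 at 0. Fitting only the groups compared moved Ugt2b34 to an adjusted p of 0.0545.

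Sult1d1 for diet under vehicle turned sign to -0.0728 (quantile), -0.0727 (array weights), -0.0381 (median-of-ratios), -0.0522 (without pancreas genes), -0.149 (general epithelial) and -0.0097 (without both extreme libraries), and ran from -0.177 to 0.275 with 1 library left out. Ugt1a6a on the normal diet became -0.002 relative to epithelial genes. Ugt2b36 became 0.0027 with array weights on the normal diet and ran from -0.179 to 0.094 with 1 library left out, and from -0.331 to 0.0118 for diet after 1,25D. Relative to the villus enterocyte list, a setting chosen after seeing the data that shifts all genes by the list's own change, 34 values turned sign. For 1,25D on the normal diet these were Sult1b1 -0.246, Sult1d1 -0.151, Sult2b1 -0.451, Ugt1a1 -0.171, Ugt1a6a -0.889, Ugt2a3 -0.0886 and Ugt2b34 -0.388. For 1,25D on the rescue diet these were Sult1b1 0.0941, Sult2b1 0.0665, Ugt1a1 0.285, Ugt2a3 0.0146 and Ugt2b34 0.0895. For diet under vehicle these were Sult1b1 -0.106, Sult1d1 -0.539, Sult2b1 -0.298, Ugt1a1 -0.386, Ugt1a6a -0.212, Ugt2b34 -0.0875 and Ugt2b36 -0.383. For diet after 1,25D these were Sult1b1 0.234, Sult2b1 0.22, Ugt1a1 0.0706, Ugt1a6a 0.545, Ugt2a3 0.229, Ugt2b34 0.39 and Ugt2b36 0.787. For the difference of the effects these were Sult1b1 0.341, Sult1d1 0.123, Sult2b1 0.518, Ugt1a1 0.456, Ugt1a6a 0.757, Ugt2a3 0.103, Ugt2b34 0.478 and Ugt2b36 1.17. Absolute depth is unknown, so no counting interval can be given.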

Other observations

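Other cell type lists had no called gene for 1,25D against vehicle on the normal diet. The ranges of their summed levels overlapped between both groups. Over all genes 58.8% lay above 0 in this comparison, and the counts of signs below are not a test. The summed RPKM of 8 T cell genes was 26.2 to 45.8 in normal vehicle and 43.3 to 57.7 in normal 1,25D, and 7 of the 8 lay above 0. The 8 enteroendocrine genes all lay above 0 (median log2 difference 0.58), with sums of 123.5 to 256.7 and 217.2 to 280.8 RPKM. The 8 Paneth cell genes all lay below 0 (median -0.49), with sums of 5189 to 20890 and 5822 to 13130 RPKM. Of 7 crypt stem cell genes 6 lay below 0 (median -0.51). Of 5 Brunner gland genes 4 lay above 0 (median 1.28), and of 8 goblet cell genes 7 did (median 0.24).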
